A study of Gelatoporia subvermispora and Trametes versicolor with 24 samples.

Results

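The genes described are those of the white-rot fungus Gelatoporia subvermispora whose identifier is ter followed by a number (ter3, ter9, ter11, ter12, ter13 and ter14), together with nps1 and nps2. The rule for choosing them uses the identifier and no measured value, though it was set with earlier results of these data known. They make up 8 of the 12313 genes in the fungus's count tables. Strain FP-105752, formerly known under the genus name Ceriporiopsis, was grown as a monokaryon, mycelium whose cells carry 1 nuclear type, in static medium with 5 g/L cellobiose at 28 °C. After 12 days every flask was supplied with ascorbic acid at 5 mM and, from a solution in ethanol, α-tocopherol at 1 mM. Starting 30 min later, 3 flasks were given vanillate (2 mM final concentration) as 2 additions separated by 12 h. A further 3 flasks were given equal volumes of water. All mycelium was harvested 12 h after the last addition, on day 13, so the water flasks share every other addition. Vanillate is a methoxylated aromatic acid related to lignin. The study concerned how white-rot fungi use such compounds.

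Fungi make many of their natural products with a few classes of core enzyme. Terpene synthases fold and cyclise isoprenoid diphosphates into terpene skeletons, and in mushroom-forming fungi many of them form sesquiterpenes. Nonribosomal peptide synthetases join amino acids without a ribosome. Some of their products are siderophores, small molecules that bind iron outside the cell. A peptide synthetase of this species named NPS2 is known to make the hydroxamate siderophore basidioferrin. The symbols ter and nps are those used for terpene synthase and nonribosomal peptide synthetase genes, but the count tables pair them with no product name. Whether the identifier nps2 is the gene of that siderophore synthetase cannot be told from the labels or tables. No sequence or gene length was used, so the levels of different genes are not ranked against each other.

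The data are read counts per gene from 2 libraries of each of the 6 flasks, summed per flask. Flask totals were 6119420 to 12333618 gene counts with vanillate and 8498106 to 9765746 with water. Within a flask the 2 libraries differed little, with a chi-square per degree of freedom of 1.01 to 1.06, against 2.88 to 8.65 between flasks of 1 group. Genes took 70.0% to 76.5% of reads in vanillate flasks and 76.4% to 79.9% in water flasks. Reads set aside for low alignment quality were 5.98% to 12.3% in vanillate flasks, the highest in flask 1, and 4.04% to 5.57% in water flasks. The part of these differences in the results below was not tested. Levels are CPM, read counts scaled to a common library total, with TMM scaling, which corrects for differences in RNA composition between libraries. All 8 genes had enough counts to be tested.

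Of the 8 genes, 3 fell with vanillate (ter14, nps1 and ter9), 1 rose (nps2), and ter3, ter11, ter12 and ter13 did not pass. The test was edgeR's quasi-likelihood test with Benjamini-Hochberg adjustment over all 10318 genes, called at an adjusted p under 0.05. By the same rule 25.9% of all genes fell and 25.5% rose, together 51.4%, so the 4 calls among 8 genes are close to the share over the whole transcriptome. The median log2 fold change of the 8 genes was -0.24, and that of the 6 ter genes was also -0.24. Over all genes tested the median was -0.01 and the middle 50% ran from -0.31 to 0.27. With library totals in place of TMM the median of all genes moved to -0.14, and the share of calls that were increases was 31.9% in place of 49.6%. Flasks of the 2 groups did not overlap for 4 genes that were lower with vanillate (ter14, nps1, ter9 and ter3) and for 1 that was higher (nps2), as was so for 30.1% and 29.1% of all genes. Both nps genes passed the test, in opposite directions, and both ter calls were falls.

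**Figure D1:**
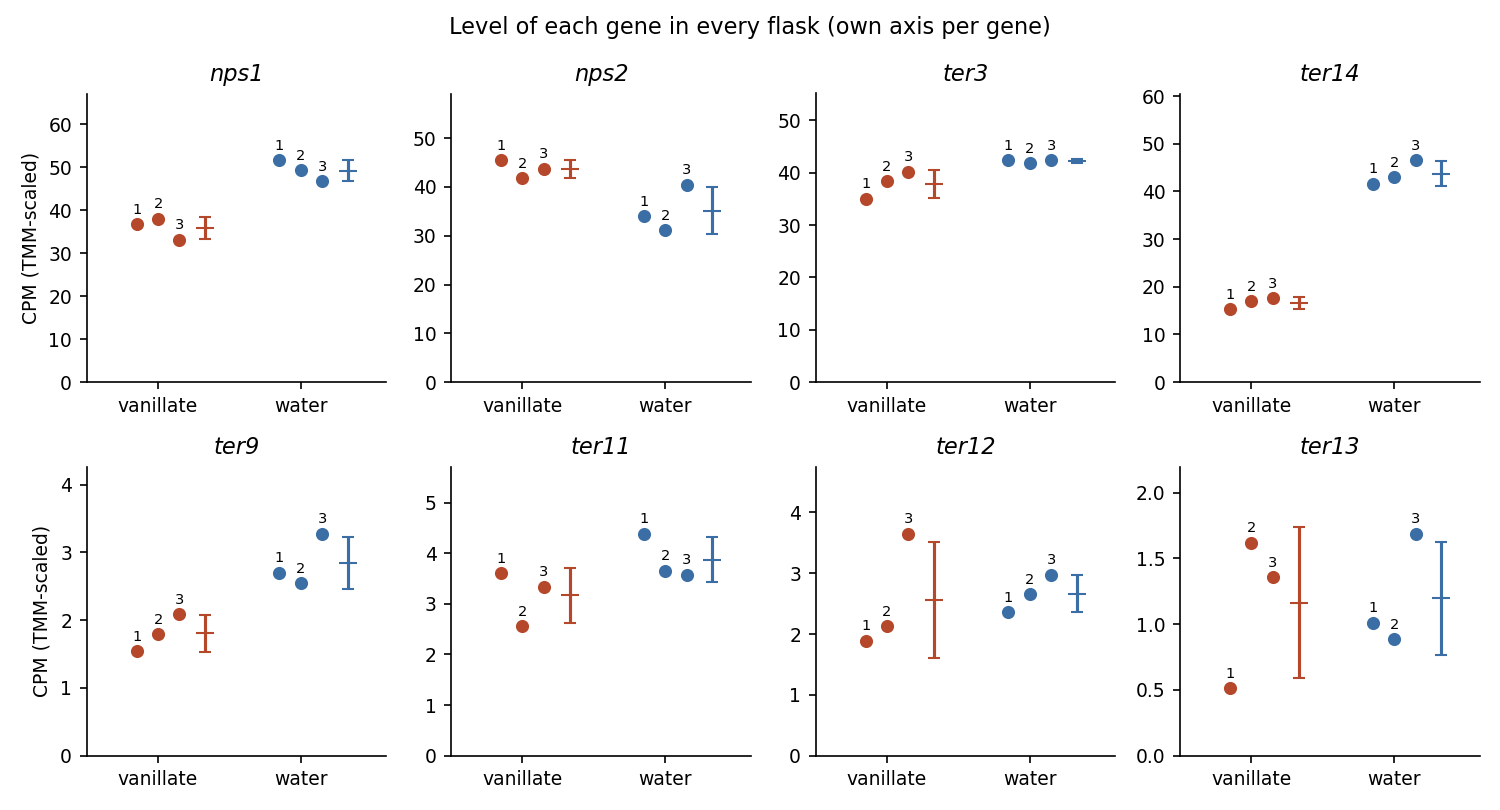
Level of each gene in CPM (TMM-scaled, y axis, starting at 0 with its own range per gene) in the 3 vanillate flasks (left, numbered) and the 3 water flasks (right, numbered), with mean ± SD beside the points. The groups are separate for nps1, nps2, ter3, ter14 and ter9 and overlap for ter11, ter12 and ter13; ter14 stands at 15.3 to 17.6 CPM with vanillate and 41.6 to 46.6 CPM with water.

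The gene that changed most was ter14, by its symbol a terpene synthase gene. It stood at 15.3, 17.0 and 17.6 CPM in vanillate flasks 1 to 3, against 41.6, 43.0 and 46.6 CPM in water flasks 1 to 3. Every vanillate flask was thus far below every water flask, and within each group the flasks differed little. The means were 16.6 ± 1.21 CPM with vanillate and 43.7 ± 2.55 CPM with water (SD, n = 3 each), from 457 and 1228 reads. The log2 fold change was -1.39 (SE 0.10, edgeR adjusted p = 5.12e-08), so the level with vanillate was 0.383 of that with water. That is lower than nearly all of the transcriptome, since 1.47% of all genes tested had a log2 fold change as low or lower. A fall of at least 2-fold that passed the test was seen in 3.89% of all genes. The call held on leaving out any 1 flask, with log2 fold changes of -1.43 to -1.34 and adjusted p up to 2.02e-06.

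The relative spread of ter14 between flasks was 7.29% of the mean with vanillate and 5.84% with water. Counting error alone gives 8.46% and 4.96% at these read numbers, so the flasks differed by about as much as the reads allow one to see. On library totals the level with vanillate was 0.352 of that with water, with a 95% interval from counting of 0.315 to 0.392. These intervals cover counting error only, since they were computed on reads summed over the flasks of a group. They leave out differences between flasks, and the reads carry no molecular identifiers.

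The other ter gene with many reads was ter3. It stood at 35.0, 38.4 and 40.2 CPM in vanillate flasks 1 to 3, against 42.4, 41.8 and 42.4 CPM in water flasks 1 to 3. The vanillate flasks lay below the water flasks without overlap, but the highest of them came within a few CPM of the lowest water flask. The means were 37.9 ± 2.62 CPM with vanillate and 42.2 ± 0.33 CPM with water, from 1040 and 1182 reads. Its log2 fold change was -0.15 (SE 0.08) and did not pass (edgeR adjusted p = 0.142), with a 95% interval of -0.31 to 0.01. With library totals it was -0.28 and passed (edgeR adjusted p = 0.0122), which was so under 1 of 16 alternatives. A difference of the size seen in ter14 lies far outside that interval.

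Among the ter genes with few reads, ter9 passed the test narrowly. It had 9, 21 and 20 reads in vanillate flasks 1 to 3, against 24, 23 and 33 reads in water flasks 1 to 3. In CPM this was 1.55, 1.79 and 2.09 with vanillate, against 2.70, 2.55 and 3.28 with water, and the groups did not overlap. The log2 fold change was -0.63 (SE 0.25, edgeR adjusted p = 0.0456). The call was lost on leaving out any 1 of the 6 flasks (adjusted p = 0.0563 to 0.160) and with the DESeq2 Wald test (adjusted p = 0.191). The direction stayed below 0 in all 15 alternatives that tested it, of which 3 passed.

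The remaining ter genes were near the limit of what these libraries resolve. For ter11 the levels were 3.61, 2.56 and 3.34 CPM in vanillate flasks 1 to 3, against 4.39, 3.65 and 3.58 CPM in water flasks 1 to 3. Vanillate flask 1 and water flask 3 overlapped, and the log2 fold change of -0.32 (SE 0.22) did not pass (edgeR adjusted p = 0.225). It was below 0 in all 15 alternatives that tested it and passed in none of them.

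For ter12 the levels were 1.89, 2.13 and 3.65 CPM in vanillate flasks 1 to 3, against 2.36, 2.66 and 2.98 CPM in water flasks 1 to 3. The vanillate flasks enclosed the water flasks on both sides, flask 3 being the highest of all 6. The log2 fold change was -0.04 (edgeR adjusted p = 0.924), with a 95% interval of -0.57 to 0.50.

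The fewest reads were those of ter13, with 3, 19 and 13 reads in vanillate flasks 1 to 3, against 9, 8 and 17 reads in water flasks 1 to 3. In CPM this was 0.515, 1.62 and 1.36 with vanillate, against 1.01, 0.885 and 1.69 with water. The mean CPM was slightly lower with vanillate (1.16 ± 0.58) than with water (1.20 ± 0.43), although the fitted log2 fold change was above 0. That log2 fold change of 0.07 (edgeR adjusted p = 0.889) had a 95% interval of -0.70 to 0.85. A change of 1.5-fold in either direction was therefore not detectable at this depth for ter13, and its sign and that of ter12 turned with the flask left out.

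The pair of nps genes moved in opposite directions. For nps1 the levels were 36.7, 38.0 and 33.1 CPM in vanillate flasks 1 to 3, against 51.6, 49.2 and 46.7 CPM in water flasks 1 to 3. All vanillate flasks were below all water flasks, by a gap wider than the range within either group. The means were 35.9 ± 2.55 CPM with vanillate and 49.2 ± 2.48 CPM with water, from 977 and 1374 reads. The log2 fold change was -0.45 (SE 0.08, edgeR adjusted p = 0.000519), a level with vanillate of 0.731 of that with water. The call held under all 16 alternatives, with log2 fold changes of -0.58 to -0.37. This was a moderate change among all genes, 17.2% of which had a log2 fold change as low or lower.

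For nps2 the levels were 45.5, 41.8 and 43.7 CPM in vanillate flasks 1 to 3, against 34.0, 31.1 and 40.4 CPM in water flasks 1 to 3. The vanillate flasks agreed closely, while water flask 3 stood above the other water flasks and just below the lowest vanillate flask. The means were 43.7 ± 1.84 CPM with vanillate and 35.2 ± 4.77 CPM with water, from 1175 and 990 reads. The log2 fold change was 0.31 (SE 0.10, edgeR adjusted p = 0.0192), or 1.24-fold. The call was lost without vanillate flask 1 (adjusted p = 0.0643), vanillate flask 3 (0.0523) or water flask 2 (0.0996), and with library totals (log2 fold change 0.18, adjusted p = 0.126). Without water flask 3 the log2 fold change was 0.42 (edgeR adjusted p = 0.0019). It was above 0 under all 16 alternatives.

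**Figure D2:**
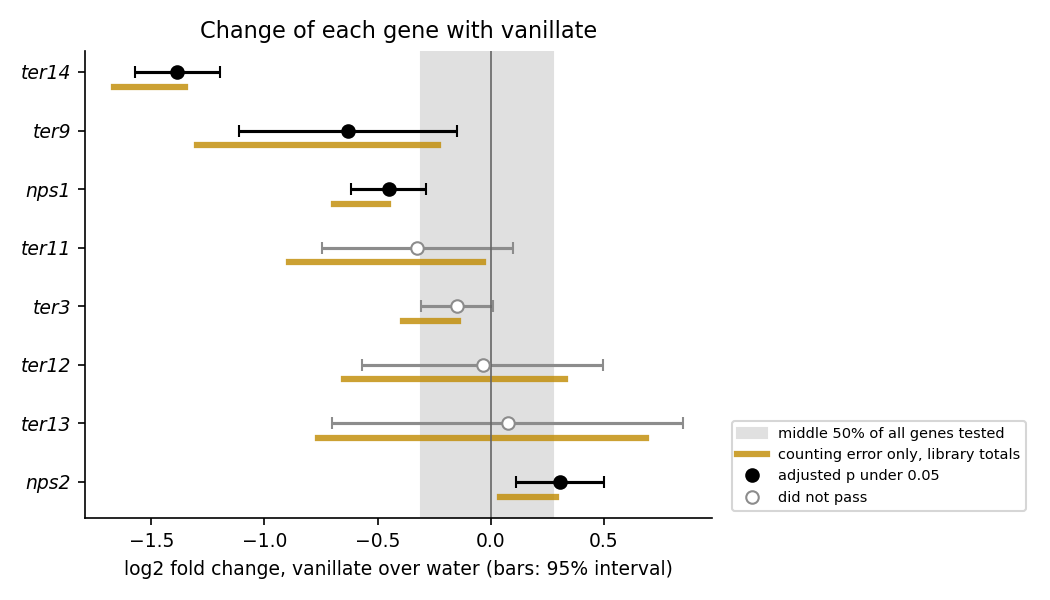
Log2 fold change of each gene, vanillate over water (x axis), with the 95% interval from its SE (thin bars; filled points passed at an adjusted p under 0.05) and the interval from counting error alone on library totals (thick bars). The shaded band is the middle 50% of all 10318 genes, -0.31 to 0.27. The points for ter14 at -1.39, ter9 at -0.63, nps1 at -0.45 and, just outside it and not called, ter11 at -0.32 lie left of the band, and that of nps2 at 0.31 lies just right of it.

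A ratio of 2 genes within a flask does not depend on how flasks are scaled against each other. The ratio of nps2 to nps1 reads was 1.24, 1.10 and 1.32 in vanillate flasks 1 to 3, against 0.658, 0.631 and 0.866 in water flasks 1 to 3. In every vanillate flask nps2 had more reads than nps1, and in every water flask it had fewer. Gene lengths were not used, so these read numbers do not rank the levels of the 2 genes. The mean ratio was 1.22 ± 0.11 with vanillate and 0.718 ± 0.13 with water, a difference of 0.77 on the log2 scale. No test is given for these ratios, since the pairs were picked with their values in view.

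The ratio of ter14 to ter3 reads was 0.436, 0.441 and 0.439 in vanillate flasks 1 to 3, against 0.981, 1.03 and 1.10 in water flasks 1 to 3. The vanillate flasks spread by 0.567% of their mean, while counting error on the reads is 8.51% to 12.7% in a flask, so the reads cannot resolve such closeness. The mean was 0.439 ± 0.0025 with vanillate and 1.04 ± 0.059 with water, a log2 difference of -1.24. Ratios of 4 pairs were computed, all among the members with many reads. The ratio of ter14 to nps2 was 0.381 ± 0.040 with vanillate and 1.25 ± 0.12 with water, and that of nps1 to ter3 was 0.954 ± 0.12 with vanillate and 1.17 ± 0.059 with water. Such a ratio shows unequal change of both genes and not which of them changed.

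**Figure D3:**
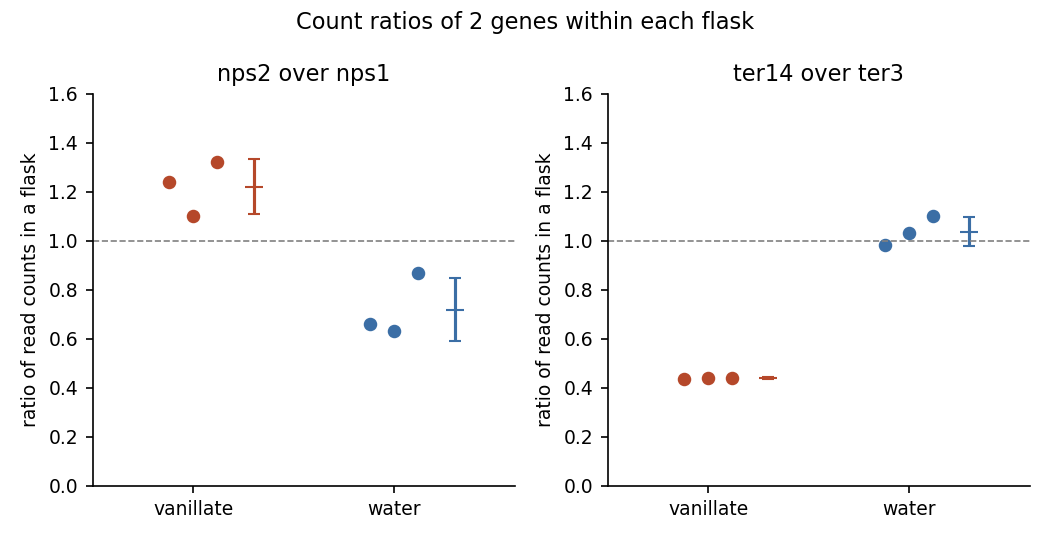
Ratio of read counts of 2 genes within each flask (y axis, from 0; dashed line at 1), for nps2 over nps1 (left panel) and ter14 over ter3 (right panel), with vanillate flasks left and water flasks right in each panel and mean ± SD beside the points. The nps2 to nps1 ratio is 1.10 to 1.32 with vanillate and 0.631 to 0.866 with water; the ter14 to ter3 ratio is 0.436 to 0.441 with vanillate and 0.981 to 1.10 with water.

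Together the 8 genes took a small part of the transcriptome. Their share of gene counts was 0.0133%, 0.0136% and 0.0140% in vanillate flasks 1 to 3, against 0.0188%, 0.0185% and 0.0193% in water flasks 1 to 3. The 6 ter genes accounted for 0.00605% ± 0.00055 with vanillate and 0.0101% ± 0.00025 with water (SD, n = 3 each). Most of the difference in the ter sum was in ter14, with 457 of its reads in vanillate flasks and 1228 in water flasks, beside 1040 and 1182 for ter3.

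The counts of each gene were compared between the repeat libraries of a flask. Of 48 exact binomial tests, 1 for each gene and flask, 2 had an unadjusted p under 0.05, both for nps1. The lowest was 0.00889, and after adjustment over the 48 tests it was 0.427. With the first libraries alone the log2 fold changes were -1.51 for ter14, -0.56 for nps1 and 0.31 for nps2. With the second libraries alone they were -1.29, -0.37 and 0.29, and each of these passed edgeR's test in both sets. Both sets come from the same flasks, so passing in both is no independent replication. For ter9 the first libraries gave -0.39 (edgeR adjusted p = 0.410) and the second -0.84 (adjusted p = 0.0653), so it passed in neither. The genes with few reads differed more between the sets, with -0.72 and -0.09 for ter11 and 0.14 and -0.17 for ter12.

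Genes with the most similar pattern were sought for each gene that passed. The measure was the root-mean-square difference of log2 CPM over the 6 flasks, after each gene was centred on its own mean. It takes in the treatment difference, which very many genes share. For ter14 the closest genes were CERSUDRAFT_136944 (0.041), CERSUDRAFT_118493 (0.074) and CERSUDRAFT_85474 (0.084), with log2 fold changes of -1.40, -1.45 and -1.33. By this measure 8 genes lay within 0.1 of ter14. For nps1 the closest were CERSUDRAFT_142079 (0.029), CERSUDRAFT_116025 (0.029) and CERSUDRAFT_122222 (0.031), among 321 genes within 0.1. For nps2 they were CERSUDRAFT_83128 (0.052), CERSUDRAFT_67171 (0.054) and CERSUDRAFT_114323 (0.056), among 110 within 0.1. For ter9 they were CERSUDRAFT_124087 (0.051), CERSUDRAFT_87097 (0.054) and CERSUDRAFT_103441 (0.062), among 22. Mean counting error in a flask was 25.8% with vanillate and 19.6% with water for ter9, and 8.46% and 4.96% for ter14. The differences named here are smaller than the counting error of each gene that passed. The reads therefore cannot set the named genes apart from others nearly as close. The tables pair these identifiers with no product.

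**Figure D4:**
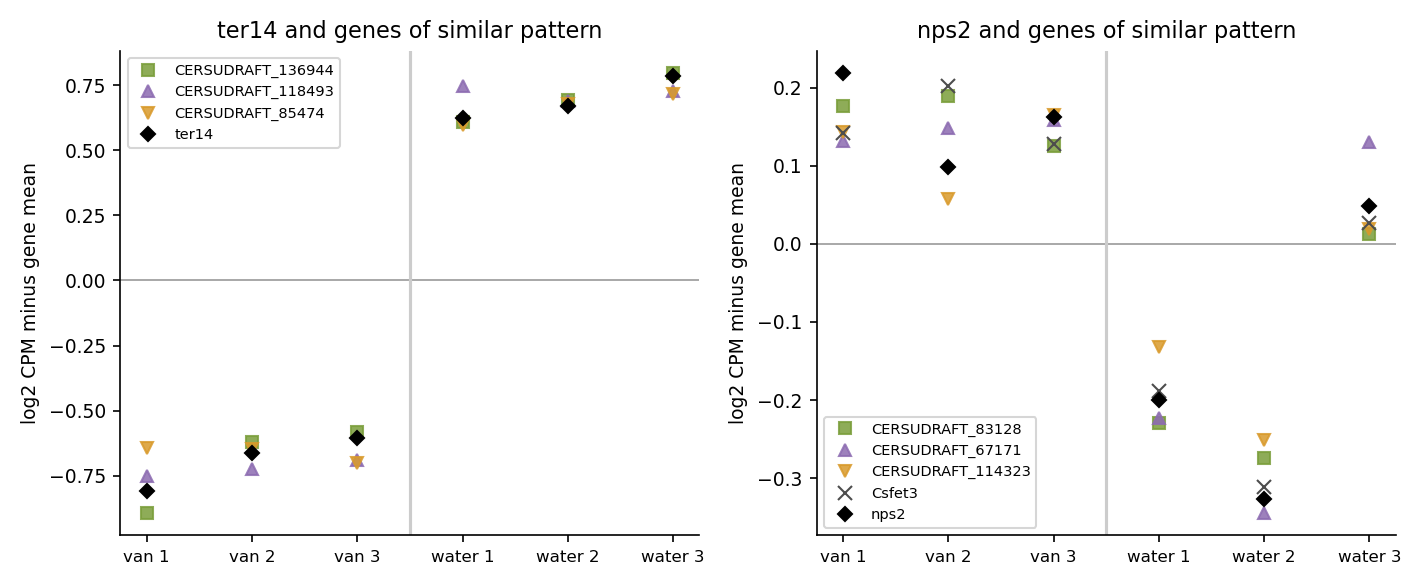
Log2 CPM minus the gene's own mean (y axis) in the 3 vanillate flasks and the 3 water flasks (x axis), for ter14 with its 3 closest genes (left panel) and for nps2 with its 3 closest genes and Csfet3 (right panel). The ter14 points lie between -0.81 and -0.61 with vanillate and between 0.62 and 0.78 with water; the nps2 points lie between 0.10 and 0.22 with vanillate and between -0.33 and 0.05 with water, with water flask 3 highest of the water flasks.

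Other genes of these pathways were looked up by symbol, which 110 of the 12313 genes carry. Genes with only a CERSUDRAFT number could be matched by no list. No symbol of isoprenoid supply, such as the mevalonate pathway, and none of polyketide or other natural product synthesis was matched. Neither of these lists allowed the species prefix Cs, so a symbol with that prefix could not be matched. The list of siderophore and iron genes matched 1 gene, Csfet3, by its symbol a ferroxidase, an enzyme class that takes part in iron uptake in yeast. Csfet3 rose, at 214.3, 223.3 and 212.0 CPM in vanillate flasks 1 to 3, against 170.4, 156.5 and 197.8 CPM in water flasks 1 to 3. As for nps2, water flask 3 was the highest of the water flasks and flask 2 the lowest. Its log2 fold change was 0.31 (SE 0.08, edgeR adjusted p = 0.00526), beside 0.31 for nps2. By the measure of likeness above, Csfet3 was the gene ranked 4 of 10317 for nps2 (0.056), a comparison made after its values were seen. The reads cannot resolve this rank. Mean counting error of nps2 in a flask was 5.18% with vanillate and 5.56% with water, and 110 genes lay within 0.1 of it.

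The list of acl and acs symbols matched acl3 and acl4, whose function neither the labels nor the tables give. Of the 2 genes, acl4 fell (23.6 ± 1.35 CPM with vanillate and 66.7 ± 6.41 CPM with water, log2 fold change -1.49, edgeR adjusted p = 1.63e-08). The other, acl3, was at 273.5 ± 6.50 CPM with vanillate and 268.0 ± 3.31 CPM with water and did not pass (adjusted p = 0.711).

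The processing alternatives moved the genes with few reads most. Under 16 alternatives ter14 ranged from -1.51 to -1.29 and nps1 from -0.58 to -0.37 on the log2 scale, and both passed in all 16. The range of nps2 was 0.18 to 0.42, and it passed in 12 of 16. The range of ter3 was -0.28 to -0.10. For ter9 it was -0.84 to -0.39, for ter11 -0.72 to -0.09, for ter12 -0.54 to 0.14 and for ter13 -0.23 to 0.42. The stricter filter on low counts left out ter9, ter11, ter12 and ter13, and 12 alternatives tested ter13.

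**Figure D5:**
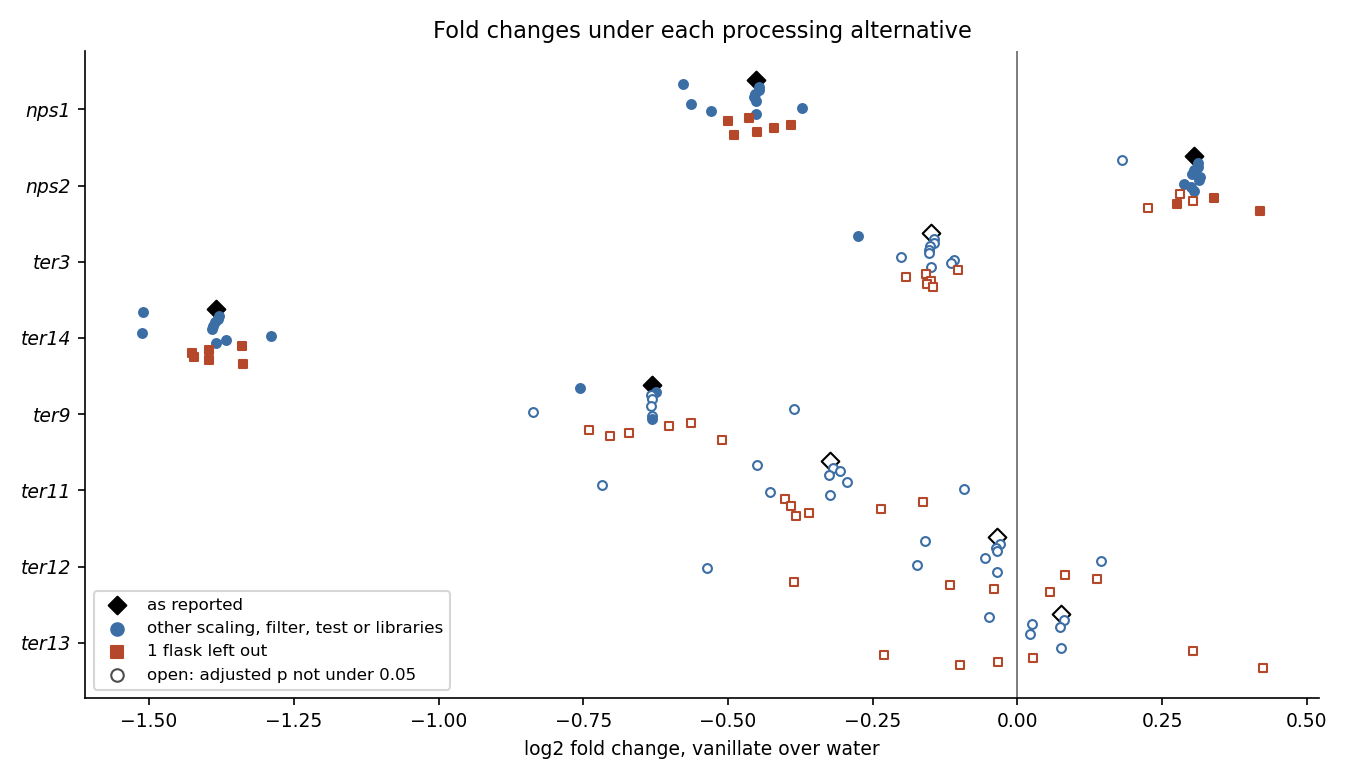
Log2 fold change of each gene, vanillate over water (x axis), as reported (diamonds), under other scalings, filters, tests or sets of libraries (circles) and with 1 flask left out (squares); open symbols did not reach an adjusted p under 0.05. All symbols of ter14 and nps1 are filled and lie below 0, while those of ter12 and ter13 are open and lie on both sides of 0.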

How the data were processed

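RNA of 12 G. subvermispora libraries was analysed, and the libraries of the other fungus of the series were not used here. The authors deposited raw read counts per gene for each library. FastQC, STAR and HTSeq are named, with no version, in the submitters' processing notes. For the genome build, annotation and strand setting, nothing is given in the sources used here. Total RNA libraries were made with a stranded kit, per the labels' protocols. The line for reads aligned to more than 1 place held 0 in every flask, which does not show that there were none. Such reads may have been left out earlier or set aside under low alignment quality (4.04% to 12.3% of reads in a flask). Which of these holds was not tested. Reads of near-identical copies, as could exist among ter genes, may have been lost in either case. Reads set aside as ambiguous between genes were 0.838% to 0.971% in a flask and were counted for no gene. Lines that name no gene (20.1% to 30.0% of reads) were left out.

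The 2 libraries of each replicate number were summed, since they differed far less than flasks did, which gave 3 flasks per group. The labels do not tie flasks to separate seed cultures, and p-values therefore describe only how these flasks varied, which may be technical. Counts were fitted with edgeR 4.0.16 in R 4.3.3 (filterByExpr with min.count 10 and min.total.count 15, TMM, robust quasi-likelihood F test, two-sided, no block). A gene was called at an adjusted p under 0.05. The SE is the absolute log2 fold change over the square root of F, and 95% intervals are 1.96 SE to each side. Both can be too narrow at low counts. The factor 1.96 is that of a normal distribution, while the F test has limited degrees of freedom. The intervals are therefore somewhat too narrow for every gene. Counting intervals of ratios are exact (Clopper-Pearson) at 95%. Log2 CPM for patterns used a prior count of 2. DESeq2 1.42.0 and other scalings, filters, libraries and flasks left out were alternatives. The scripts were tested on simulated data. All 8 members are named, with the 3 genes of most similar pattern for each that passed and for the member of highest mean CPM, and list members that passed. Members and lists were chosen with earlier results of these data known. Lists were matched to symbols, and only the list of siderophore and iron genes allowed the species prefix Cs.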

Additional observations from a re-analysis of the deposited data

How the results depend on the processing

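As reported, 1 of the 8 genes rose and 3 fell. With library totals in place of TMM, edgeR called 0 higher (0 also at an unadjusted p under 0.05) and 4 lower, and ter13 turned to -0.049 on the log2 scale. DESeq2, run with its own size factors and not with library totals, called 1 higher and 2 lower. On leaving out each flask 0 to 1 rose and 2 fell. In those fits ter12 ranged from -0.39 to 0.14 and ter13 from -0.23 to 0.42, each on both sides of 0. With the first libraries alone ter12 was 0.14. The cause of these turns was not tested, and both genes had at most 35 reads in a flask. No pairing by replicate number was seen: deviations of same-numbered flasks correlated at -0.03, 0.03 and -0.14 across genes. Those of differently numbered flasks correlated at -0.13 to 0.14. With so few flasks in a group, these values cannot show whether flasks were handled in pairs. With a replicate block 1 rose and 2 fell, ter9 being the call lost (adjusted p = 0.0566), and the other 7 genes kept their side of the threshold. Over all genes, 1788 to 2678 rose and 2171 to 3812 fell under the other settings, against 2629 and 2675 as reported.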
